A study of Homo sapiens with 3 samples.

Results

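ATF4 and its network of stress regulators, a set of 10 genes, were followed in RNA from the bladder cancer line 5637, an established human cell line, in 3 libraries. The genes are ATF4, ATF3, ATF5, DDIT3, TRIB3, NUPR1, CEBPB, SESN2, DDIT4 and STC2, out of 19225 gene symbols in the deposited table, and all 10 were found in it. They were chosen by pathway with their RPKM in these same libraries already known, so the comparison with the control that follows describes them and is not tested. Each gene is represented by its most counted transcript.

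One library came from cells transfected with a control siRNA (siNC). The other 2, siCDCA3-1 and siCDCA3-2, came from cells transfected with siRNA against CDCA3, a gene of mitotic entry, to find genes that lie downstream of it. All the cells were labelled wild type and all were transfected with the same lipid reagent, and no untransfected library was analysed here. Whether these 2 differ in siRNA sequence or are separate cultures is not stated. Every level is given as RPKM, in which the authors scaled reads by transcript length and by library total. As siNC is 1 library, each ratio to it carries a 95% exact binomial interval that covers counting error only and no spread between cultures.

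ATF4 is a transcription factor whose protein is made when the translation factor eIF2 is phosphorylated, as happens during amino acid shortage or stress in the endoplasmic reticulum. It then switches on genes for amino acid synthesis and uptake together with a second layer of regulators, among them the factors ATF3, ATF5 and DDIT3 (CHOP), the pseudokinase TRIB3 that feeds back on ATF4, and SESN2 and DDIT4, which restrain the growth kinase complex mTORC1. CEBPB is a partner of ATF4 and CHOP on DNA. Since ATF4 is controlled mainly through translation, its RNA level is not a measure of its protein.

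Upstream sequences are shown first for 5 members, DDIT3, SESN2 and DDIT4, which each hold a pair of CCAAT letters close to their start, and ATF4 and ATF5, which hold none, chosen after their values and matches were seen. CCAAT was present in windows of ATF3, CEBPB, DDIT3, DDIT4, SESN2 and STC2, all lower than siNC in both siCDCA3 libraries. Of these, CEBPB lay nearest to the control. The letters were absent from the windows of TRIB3 and ATF4, also lower in both, and of ATF5, which was higher in both. A relation between the letters and the direction of the RNA was not tested. The stretches run 5′ to 3′ on the gene's strand, from 160 to 61 bases before the first listed start, in RefSeq sequence of GRCh38.p14. Capitals mark CCAAT, or ATTGG where it lies on the other strand. They lie at chr12:57520575-57520674 on the minus strand for DDIT3, and on the plus strand at chr1:28259358-28259457 for SESN2, chr10:72273764-72273863 for DDIT4, chr22:39520399-39520498 for ATF4 and chr19:49928746-49928845 for ATF5.
DDIT3: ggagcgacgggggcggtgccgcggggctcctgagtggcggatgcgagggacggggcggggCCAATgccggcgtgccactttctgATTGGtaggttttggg
SESN2: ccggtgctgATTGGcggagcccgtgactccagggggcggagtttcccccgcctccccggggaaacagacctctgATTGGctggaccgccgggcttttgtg
DDIT4: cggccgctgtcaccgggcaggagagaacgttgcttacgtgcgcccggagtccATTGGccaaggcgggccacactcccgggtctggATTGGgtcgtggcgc
ATF4: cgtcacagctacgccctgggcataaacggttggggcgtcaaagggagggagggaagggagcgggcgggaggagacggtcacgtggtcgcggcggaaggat
ATF5: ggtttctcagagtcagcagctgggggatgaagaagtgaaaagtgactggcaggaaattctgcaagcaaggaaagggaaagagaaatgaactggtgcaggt

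Windows of 300 bases, from 250 before a start to 50 after it, were available for 9 of the 10 genes, with 17 windows in all because several have more than 1 start. NUPR1 had none. CCAAT was found on either strand in 8 of the 17 windows (47.1%), which belong to ATF3, CEBPB, DDIT3, DDIT4, SESN2 and STC2, against 34.6% of the 35116 windows of all genes. It occurred 2 or more times in 4 of the 17 windows (23.5%), against 10.8% of all windows. Windows of 1 gene can overlap, so they are not independent. The matching windows of DDIT3 hold the same pair of letters, and those of CEBPB the same single match. By gene, 3 of the 9 had a window with 2 or more matches, DDIT3, DDIT4 and SESN2. The letters TGATGNAA, the core of the element that ATF4 binds with C/EBP partners, were searched on both strands and found in 1 of the 17 windows, of ATF3, against 3.62% of all windows. TGACGT, the core of the site of other ATF factors, was found in none of the 17 and in 7.98% of all windows. These are matches of letters, they do not overlap each other here, and the windows leave out sites farther away. The ATF3 match begins 191 bases before the upstream start. The stretch around it lies at chr1:212565191-212565250 on the plus strand, with the match in capitals.
ATF3: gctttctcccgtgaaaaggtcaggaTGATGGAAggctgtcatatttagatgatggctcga

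The targeted RNA was low where the labels say so, with CDCA3 at 5.52 RPKM in siNC against 0.574 and 1.40 in siCDCA3-1 and siCDCA3-2. The gene-level libraries held 40420563 to 62389922 counts. Of 14 urothelial and other epithelial markers 10 reached 1 RPKM in each library, with KRT19 the highest in all 3. Of the markers of fully differentiated urothelium, UPK1A, UPK3A and KRT20 stayed under 0.1 and UPK2 was at 0.386, 0.802 and 0.167. The summed epithelial level ran from 2630 RPKM in siNC to 2210 and 1800. None of 7 leukocyte and 5 endothelial markers reached 1 RPKM, with summed levels of 0.474 to 0.780 and 0.0503 to 0.137. Of 7 fibroblast markers COL1A1 and THY1 reached it in every library and LUM in siCDCA3-1 (1.47), while DCN, PDGFRA, COL1A2 and COL3A1 were under 0.1 throughout, and the list summed to 10.5 RPKM in siNC, 13.7 in siCDCA3-1 and 5.74 in siCDCA3-2. The part of these differences in the results below was not tested.

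Across the 10 genes, 9 were lower than siNC in both siCDCA3 libraries and 1, ATF5, was higher in both. Among the 10153 genes whose RPKM averaged 1 or more over the libraries (the genes tested), 27.8% were lower in both, 23.6% higher in both and 48.5% went opposite ways. On the log2(RPKM + 1) scale 7 of the 10 were lower by at least 1, a 2-fold difference, in both libraries, as were 0.719% of all genes tested, and none was 2-fold higher in both, against 0.0985%. In siCDCA3-1 alone 8 were 2-fold lower (1.74% of all genes), and in siCDCA3-2 alone 7 were (3.27%). The median difference of the 10 genes was -1.54 in siCDCA3-1 and -1.47 in siCDCA3-2, while over all genes tested it was -0.07 and 0.05. Because the members were selected on this contrast, these shares are a description. As siNC serves both comparisons, a low siCDCA3 level and a high siNC level cannot be told apart, nor, in bulk RNA, can fewer cells with the transcript and less of it per cell. All 10 passed the minimum mean RPKM, NUPR1 only through its siNC level.

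**Figure D1:**
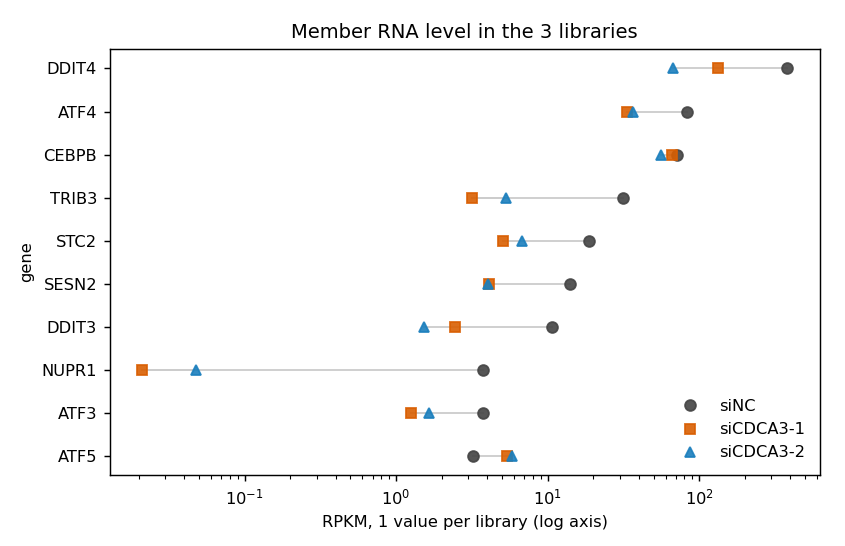
RPKM of the 10 genes in each library on a log axis, 1 point per library and no replicate of siNC. The siNC point lies to the right of both siCDCA3 points for 9 genes and to the left for ATF5, and DDIT4 is the most abundant of the 10 in every library.

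ATF4 (NM_001675.4, GRCh38 chromosome 22, 39520559 to 39522686), the centre of the network, was at 83.1 RPKM in siNC, against 33.3 in siCDCA3-1 and 36.7 in siCDCA3-2. That put it at 40.1% of the control (39.0% to 41.2%) and 44.2% (43.2% to 45.2%). The siCDCA3 libraries were close to each other and both far under siNC, and ATF4 moved from rank 265 of all genes by RPKM to ranks 790 and 745. It remained an abundant transcript. Its second transcript in the table gave 39.1% and 43.3%. GENCODE release 29 lists 4 processed pseudogenes of ATF4 by name, so reads could be split between ATF4 and such copies. Their likeness to ATF4 in sequence was not measured.

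DDIT3 (NM_001195056.1, chromosome 12, 57516588 to 57520517) encodes CHOP, the factor that carries prolonged stress towards cell death. Its RPKM of 10.7 in siNC stood against 2.43 and 1.52, or 22.6% (19.9% to 25.6%) and 14.1% (12.4% to 16.0%) of the control. Here siCDCA3-2 was the lower of the treated libraries. Over its 6 transcripts in the table the share of control ran from 21.1% to 23.0% and from 12.4% to 15.0%. DDIT3 shares 27.2% of its exonic bases with MARS on the opposite strand, and the labelled kit does not mark strand. MARS, a tRNA synthetase gene, was itself at 60.1, 13.9 and 16.2 RPKM, so some reads assigned to DDIT3 may be those of MARS.

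ATF3 (NM_001040619.2, chromosome 1, 212565407 to 212620777), a repressor induced by many stresses, was scarce throughout, at 3.72 RPKM in siNC and 1.26 and 1.65 after siCDCA3. These are 33.9% (29.8% to 38.4%) and 44.4% (40.2% to 48.9%) of the control. It was the member nearest to the 2-fold line, with differences on the log2(RPKM + 1) scale of -1.06 for siCDCA3-1 and -0.83 for siCDCA3-2, which understates the change of a low gene. With a pseudocount of 0.1 it lay past 2-fold in both, at -1.49 and -1.13. Its 6 transcripts agreed to within 30.9% to 33.9% and 42.8% to 45.5% of control.

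ATF5 (NM_012068.5, chromosome 19, 49928906 to 49933935), which like ATF4 is under translational control and is linked to the mitochondrial stress response, was the exception. It was at 3.23 RPKM in siNC, 5.41 in siCDCA3-1 and 5.78 in siCDCA3-2. Both treated libraries were above the control, at 167% (154% to 182%) and 179% (166% to 194%), and the counting interval of their ratio to each other included 1 (1.07, from 0.997 to 1.15). In siNC there was 25.7 times as much ATF4 as ATF5 RNA per length, and after siCDCA3 6.16 and 6.35 times. All 3 of its transcripts in the table were higher, from 167% to 173% and from 179% to 183%. ATF5 shares 21.2% of its exonic bases with NUP62 on the opposite strand, a nuclear pore gene at 32.9, 36.3 and 32.3 RPKM. The part of NUP62 reads in the ATF5 values was not tested.

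CEBPB (NM_001285878.1, chromosome 20, 50190583 to 50192690), the partner factor, stood closest to the control of all 10. Its RPKM was 71.7 in siNC, 66.2 in siCDCA3-1 and 55.9 in siCDCA3-2, or 92.3% (90.3% to 94.3%) and 78.0% (76.4% to 79.5%). In siCDCA3-1 its log2 difference of -0.11 was close to the median of all genes tested and ran from -0.12 to -0.03 over the alternative scalings and pseudocounts, so its direction there rests on a very small difference. The RPKM of CEBPB was 6.68 times that of DDIT3 in siNC and 27.2 and 36.9 times after siCDCA3. An antisense gene, CEBPB-AS1, overlaps 11.8% of its exonic bases.

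TRIB3 (NM_021158.4, chromosome 20, 380760 to 397559), the pseudokinase induced by ATF4 and CHOP that in turn restrains ATF4, was at 31.3 RPKM in siNC, 3.17 in siCDCA3-1 and 5.28 in siCDCA3-2. That was 10.1% (9.41% to 10.9%) and 16.9% (16.1% to 17.7%) of the control. Only 3 of the 10153 genes lay lower in siCDCA3-1 by log2 difference, TRIB3 being at -2.95, and in siCDCA3-2 it ranked 27 from the lowest. Relative to ATF4 it was also lower, with 0.377 of the ATF4 RPKM in siNC against 0.095 and 0.144. Its 6 transcripts covered only 10.1% to 10.5% and 16.4% to 16.9% of control.

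NUPR1 (NM_001042483.1, chromosome 16, 28532708 to 28538974), a small chromatin-associated protein induced by stress, came close to the detection limit. Its 445 counts in siNC stood against 2 and 7, that is 3.74 RPKM against 0.0211 and 0.0478. The ratios were 0.563% of control (0.068% to 2.05%) in siCDCA3-1 and 1.28% (0.511% to 2.65%) in siCDCA3-2. With so few counts the siCDCA3 libraries could not be told apart, as the interval of their ratio ran from 0.432 to 22.4. The second transcript held 435, 2 and 3 counts. A pseudocount of 1 sets its log2 differences at -2.21 and -2.18, and one of 0.1 at -4.99 and -4.70.

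SESN2 (NM_031459.4, chromosome 1, 28259518 to 28282491) encodes sestrin 2, a leucine-sensing inhibitor of mTORC1 signalling. It was at 14.1 RPKM in siNC and at 4.11 and 4.02 after siCDCA3, or 29.1% (27.5% to 30.8%) and 28.4% (27.1% to 29.8%). Its treated libraries lay closest together of the 10 in log2 difference, 0.03 apart with siCDCA3-2 the lower (-0.03). Among all genes tested 4.54% had a smaller gap. SESN2 has a single transcript in the table, as do DDIT4 and STC2.

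DDIT4 (NM_019058.3, chromosome 10, 72273924 to 72276036), also called REDD1, acts on the TSC complex to inhibit mTORC1 and responds to hypoxia, glucocorticoids and DNA damage as well as to ATF4. It was by far the most abundant member, at 382 RPKM in siNC, rank 57 of all genes, against 134 in siCDCA3-1 and 66.7 in siCDCA3-2. These were 35.1% (34.6% to 35.6%) and 17.5% (17.2% to 17.7%) of the control. It held 0.171% of all gene-level counts in siNC and 0.0603% and 0.030% after siCDCA3. DDIT4 was also the member on which the treated libraries differed most beyond counting error, with siCDCA3-2 at 0.498 of siCDCA3-1 (0.489 to 0.508). An antisense gene, DDIT4-AS1, overlaps 41.2% of its exonic bases and its reads could not be separated.

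STC2 (NM_003714.2, chromosome 5, 173314723 to 173328414) encodes stanniocalcin 2, a secreted glycoprotein that ATF4 induces. It was at 18.7 RPKM in siNC, 5.07 in siCDCA3-1 and 6.74 in siCDCA3-2, or 27.1% (26.0% to 28.2%) and 36.0% (34.9% to 37.1%). Both treated libraries were well under the control, siCDCA3-1 the more so.

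**Figure D2:**
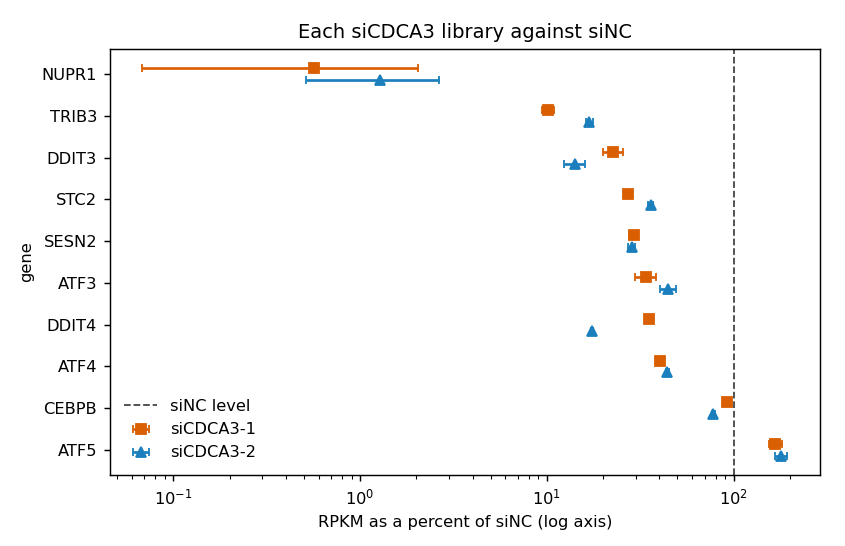
RPKM of each gene in siCDCA3-1 and siCDCA3-2 as a percent of siNC (dashed line), on a log axis, with 95% exact binomial intervals that cover counting error only. NUPR1 lies lowest, at 0.563% and 1.28%, CEBPB just under the line and ATF5 above it at 167% and 179%.

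In the order of their siNC levels per length, the genes ran DDIT4, ATF4, CEBPB, TRIB3, STC2, SESN2, DDIT3, NUPR1, ATF3 and ATF5. NUPR1 and ATF3, at 3.74 and 3.72 RPKM, cannot be ordered, and without a second siNC library the spread behind the other steps is unknown. After siCDCA3 CEBPB stood above ATF4 in both libraries, and ATF5, last in siNC, stood above DDIT3, SESN2, TRIB3, ATF3 and NUPR1 in both. The 10 genes together took 0.320% of gene-level counts in siNC and 0.131% and 0.101% in the siCDCA3 libraries.

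The treated libraries were then set against each other. On the log2(RPKM + 1) scale 0 of the 10 genes differed 2-fold between them, against 8.63% of all genes tested. With only 10 genes, 0 is not far from that share. The median gap was 0.23 log2 units for the members and 0.36 for all genes. As a plain ratio of siCDCA3-2 to siCDCA3-1, DDIT4 (0.498) and NUPR1 (2.27, from 0.432 to 22.4) were 2-fold apart. For 7 of the 10 the counting interval of the ratio of siCDCA3-2 to siCDCA3-1 excluded 1, and the others were ATF5, NUPR1 and SESN2. The share of all genes with such an interval was not computed, so this count does not set the members apart. TRIB3 was 1.67 times as high in siCDCA3-2 (1.54 to 1.81), STC2 1.33 times (1.27 to 1.39), ATF3 1.31 times (1.14 to 1.5) and ATF4 1.1 times (1.07 to 1.13). DDIT4, DDIT3 (0.624, from 0.529 to 0.737) and CEBPB (0.845, from 0.827 to 0.863) went the other way. CDCA3 itself was 2.44 times as high in siCDCA3-2 (1.97 to 3.04), and a relation of the members to its level was not tested. Of all genes, 91.2% had a smaller gap than DDIT4 and 72.5% a smaller one than TRIB3. With 1 library each, these differences have no replicate check.

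**Figure D3:**
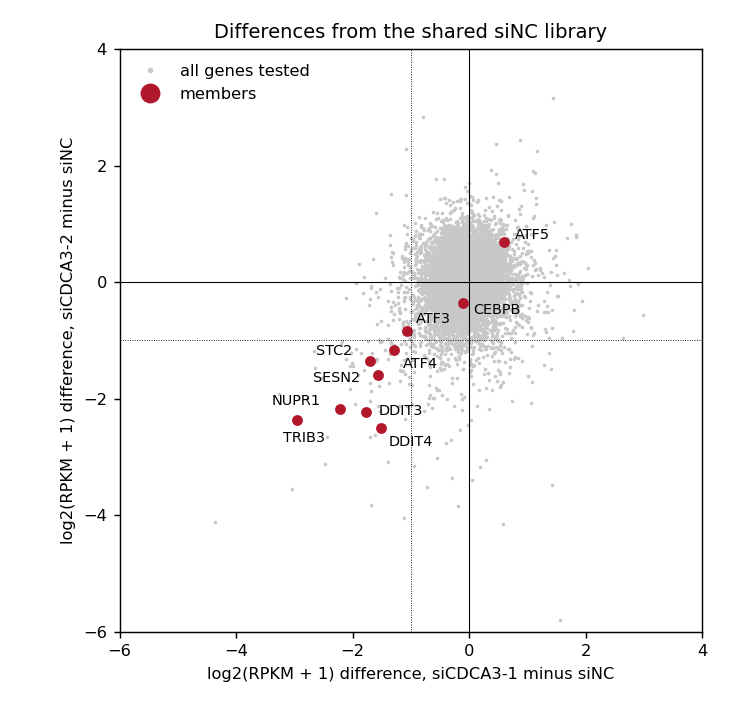
Difference from siNC in log2(RPKM + 1) for siCDCA3-1 (x axis) and siCDCA3-2 (y axis), with 1 grey point for each of the 10153 genes tested, the members in red, and dotted lines at a 2-fold decrease. Of the members 7 lie in the lower left corner, ATF3 and CEBPB nearer to 0, and ATF5 at the upper right; both axes share the siNC library.

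The rest of the pathway was described through 7 gene lists. For these, siCDCA3 was tested against siNC with the quasi-likelihood method of edgeR, adjusted by Benjamini-Hochberg over all 10153 genes. The lists were chosen with earlier results of these data known, so their counts and p-values below are a description and not independent support. The method takes the spread of the treated pair as that of siNC too. It called 3 genes lower (0.0295%) and 0 higher (0.0%). NUPR1 was 1 of the 3, which adds nothing to its description above. At an unadjusted p under 0.05 edgeR had 98 lower and 36 higher genes, DESeq2 called 8 lower and 2 higher, and limma 0, with 99 lower and 22 higher at an unadjusted p under 0.05. A gene that missed the threshold here is therefore not shown to be level.

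ATF4 target genes of amino acid supply, the enzymes, transporters and tRNA synthetases that ATF4 is best known for, were mostly lower as well. Of 31 measured, 29 were lower in both libraries and 0 higher in both, 21 were 2-fold lower in both, and the medians were -1.71 and -1.38. ASNS, asparagine synthetase, fell past the edgeR threshold (log2 fold change -5.06, adjusted p = 0.001428), with 40.5, 1.02 and 1.40 RPKM. It was the only gene of the list to do so, 22 were lower at an unadjusted p under 0.05, and DESeq2 called 4 lower. The ASNS call was lost with limma and with a minimum mean of 5 RPKM. CBS, which makes cystathionine from homocysteine, had the next strongest log2 difference in its less changed library (-2.48), at 23.3, 3.35 and 1.79 RPKM but may share reads with its near-identical copy CBSL.

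Targets of CHOP and ATF4 that bear on the outcome of stress were mixed. Of 16 measured, 9 were lower in both libraries, 2 higher in both and 5 opposite, with medians of -0.96 and -0.40. CHAC1, which degrades glutathione, fell past the edgeR threshold (log2 fold change -4.38, adjusted p = 0.03585), at 15.7, 1.04 and 0.434 RPKM, a call lost under the same settings as that of ASNS. CHAC1 passed the minimum mean RPKM only through its siNC level, since the mean of its siCDCA3 levels was under it. Including it, 4 genes of the list were 2-fold lower in both, among them GDF15, a secreted stress hormone, at 16.1, 4.34 and 0.214 RPKM. The genes higher in both were SQSTM1, an autophagy receptor, at 45.9, 75.4 and 59.4, and BCL2L11, which promotes cell death, at 1.46, 3.10 and 2.64, both named after their values were seen.

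The other factors of the ATF and C/EBP families and their bZIP relatives had medians of -0.32 and -0.30. Of 17 measured, 10 were lower in both, 2 higher in both, and 4 were 2-fold lower in both. Those 4 were XBP1, the factor spliced by IRE1, at 38.0, 16.2 and 12.7 RPKM, NFE2L1, the proteasome gene regulator, at 76.6, 34.1 and 25.9, JDP2 at 8.22, 3.28 and 0.821, and CEBPG, a dimer partner of ATF4, at 13.4, 4.10 and 6.19. The last 2 were named after their values were seen. EdgeR called 0 of the 17 (4 lower at an unadjusted p under 0.05), and DESeq2 and limma 0.

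Of the relatives of TRIB3, SESN2, STC2, DDIT4 and NUPR1, 4 were measured. TRIB1, a sister of TRIB3, was at 5.79, 12.3 and 8.47 RPKM, and TRIB2 at 4.22, 4.69 and 4.78. SESN1 was at 1.27, 1.41 and 2.52. STC1, the relative of STC2, was at 0.625, 2.16 and 1.61. STC1 passed the minimum mean RPKM only through its siCDCA3 levels. All 4 were higher in both siCDCA3 libraries, but edgeR, DESeq2 and limma called 0 of them and only STC1 had an unadjusted edgeR p under 0.05. SESN3, DDIT4L and NUPR2 were too low to be measured.

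Genes upstream of ATF4 did not move together. The 11 genes of this list cover the eIF2 kinases, eIF2 alpha and its phosphatase genes, together with IMPACT, GCN1 and EIF2B5. Of them, 3 were lower in both, 2 higher in both and 6 opposite, with medians of -0.24 and 0.26. EdgeR called 0 (1 lower at an unadjusted p under 0.05), as did DESeq2 and limma. The gene behind that p was PPP1R15A (GADD34), an ATF4 and CHOP target that reverses eIF2 phosphorylation, at 49.5, 24.6 and 19.1 RPKM, named after its values were seen. The kinase genes EIF2AK3 (PERK) and EIF2AK4 (GCN2) were at 1.79, 1.02 and 2.44 and at 6.97, 5.91 and 8.51. RNA levels of kinases do not report their activity.

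The ATF6 and XBP1 arm of the unfolded protein response, mainly chaperones of the endoplasmic reticulum, had medians of 0.06 and 0.13. Of 19 measured, 5 were lower in both libraries, 8 higher in both and 6 opposite, and XBP1 itself was the 1 gene that was 2-fold lower in both. Genes of the mTORC1 pathway, which SESN2 and DDIT4 restrain, had medians of 0.01 and 0.08. Of 19 measured, 3 were lower in both, 6 higher in both and 10 opposite. EIF4EBP1, a translation repressor that is also an ATF4 target, was 2-fold lower in both at 82.4, 22.1 and 34.8 RPKM. EdgeR called 0 genes in either list, with 1 lower in each at an unadjusted p under 0.05, and DESeq2 and limma called 0. In all, 4 genes stand on 2 of the lists, XBP1, ATF6, PPP1R15A and EIF4EBP1.

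**Figure D4:**
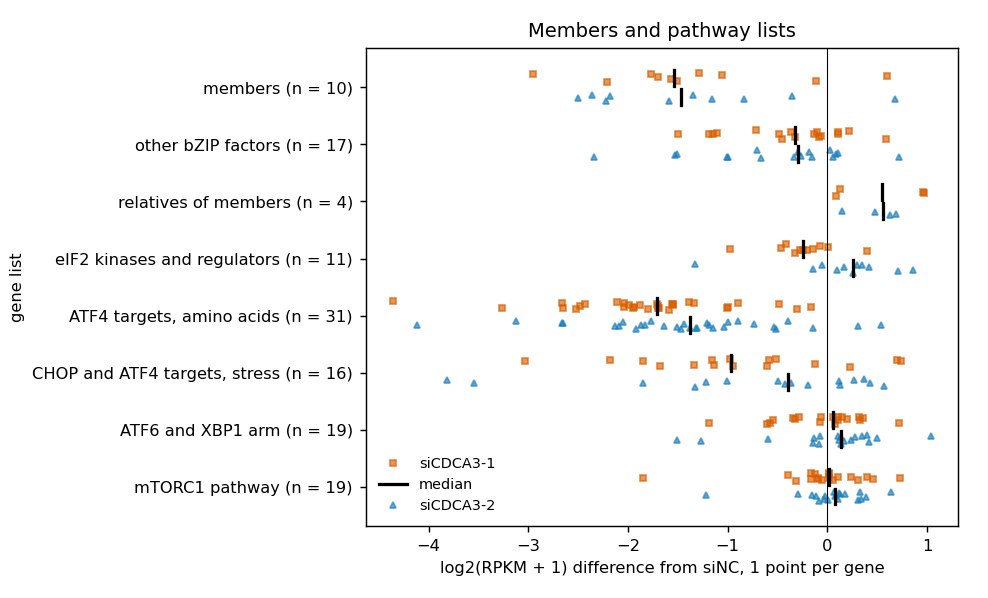
Difference from siNC in log2(RPKM + 1) for each measured gene of the members and the 7 lists, 1 point per gene and siCDCA3 library, with black bars at the medians. The ATF4 targets of amino acid supply lie to the left with the members, at medians of -1.71 and -1.38, whereas the ATF6 and XBP1 arm and the mTORC1 pathway centre near 0.

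For 3 members the genes most like them were sought outside the member set. Likeness was the smallest Euclidean distance between pairs of log2 differences from siNC, over the 2 siCDCA3 libraries. The candidates were 5493 genes averaging 5 RPKM or more, so a member could not be named as a neighbour. Nearest to ATF4 were EIF1, a translation initiation factor, at 353, 145 and 159 RPKM, SH3BP1 and the amino acid transporter gene SLC7A5. Nearest to DDIT3 were the tRNA synthetase genes AARS, CARS and SARS, at distances of 0.191 to 0.228. TRIB3 had no neighbour as close, the nearest being PSAT1, PCK2 and SLC1A5 at distances of 0.546 to 0.841. As only 2 differences enter and both use the same siNC library, this likeness is a description.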

How the data were processed

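RNA was measured in 3 libraries, 1 siNC and 2 siCDCA3. Per the submitters' processing notes, Trimmomatic 0.36, FastQC, HISAT2 and HTSeq were used, and a human and a mouse build are listed without a role. Per the file headers, the deposited table gives a raw count for each RefSeq transcript and library, and RPKM that the authors computed from count, transcript length and 1 total per library, which the values returned as 130459616, 104153360 and 160640877. The human build was taken, as 98.6% of 45006 accessions matched RefSeq of GRCh38.p14, and gene positions come from there. The strand setting of the counting is not given in the sources used. In 103 rows the symbol was a spreadsheet date, and 102 were restored by accession.

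The members and gene lists were chosen with earlier results of these data known. Each gene was represented by its transcript with the most counts, because reads were counted for every transcript they overlap. Differences are on the log2(RPKM + 1) scale. The edgeR 4.0.16 test (R 4.3.3) used TMM and genes averaging 1 RPKM or more, at an adjusted p of 0.05. It was also run on simulated data, but with a smaller spread between libraries (dispersion) than the 0.126 estimated here. That run therefore does not show how the test performs at the spread of these data. The edgeR test has 1 residual degree of freedom, and nothing in the labels says that the siCDCA3 libraries are separate cultures. Its p-values therefore reflect only how far these 2 lie apart, which may be technical. Alternatives were DESeq2 1.42.0, limma 3.58.1, other pseudocounts, scalings, filters and transcripts, and each siCDCA3 library left out. Named by rule were the members, CDCA3, genes past the edgeR test, up to 2 genes per list and direction that were 2-fold different in both libraries, and the 3 nearest neighbours of ATF4, DDIT3 and TRIB3. Exon overlaps come from GENCODE release 29.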

Additional observations from a re-analysis of the deposited data

How the results depend on the processing

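The count of 9 genes lower in both siCDCA3 libraries was the same under TMM and median-of-ratios scaling. It was also 9 under pseudocounts of 0.1 and 0.5, with the longest transcript, and with siCDCA3-1 or siCDCA3-2 left out (9 to 9). Those further settings could not lower it. A pseudocount cannot change a sign, the longest transcript gave the same values for all 10 genes, and leaving out a library can only keep or raise such a count. The 7 that were 2-fold lower became 8 with a pseudocount of 0.1, and were 7 to 8 with a siCDCA3 library left out. Of 100 recomputed differences of the members 0 changed sign, which only the scalings could have brought about, and 43 moved beyond the counting interval. That interval was set on the log2(RPKM + 1) scale. A move under another pseudocount can therefore come from the change of scale alone. The count over all genes depended on the test: edgeR called 3, DESeq2 10, limma 0, edgeR without a filter 22 and with a mean RPKM of at least 5 0. The cause was not tested. With a siCDCA3 library left out, edgeR has no residual degree of freedom, so that count was not run. No paired analysis was possible because siNC has 1 library and the groups share fewer than 2 replicate numbers. Depth limits NUPR1 after siCDCA3, at 2 and 7 counts.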
